A study of Rattus norvegicus with 16 samples.

Results

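Amz1, Rnf187, Mtarc1, Snx20, Crtapl1, Pithd1 and Rcn2 are 7 genes of rat microglia, of 30560 gene identifiers counted and 13608 genes tested. They were chosen by measured values of these data, a more negative response to lipopolysaccharide (LPS) in irradiated than in sham-treated rats, so this difference and the pairwise differences that make it up are given here as descriptions without a test. Microglia, the resident macrophages of the brain, were taken from the brains of male Wistar rats (Hsd/Cpb:WU) by mechanical dissociation and a sort for viable, CD11b-high and CD45-intermediate cells, and their RNA was sequenced in bulk. Rats received 14 Gy of X-rays or sham irradiation, and 6 weeks later an intraperitoneal injection of LPS or of phosphate-buffered saline (PBS). Each of the 4 groups (sham PBS, sham LPS, irradiated PBS and irradiated LPS) held 4 libraries. No genetic modification is named in the labels, and since they do not tie libraries to animals, p-values measure only the spread between these samples, which may be technical. Each of the 7 symbols stood on 1 identifier, and all 7 genes passed the filter on low counts.

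LPS is a component of the outer membrane of Gram-negative bacteria that is sensed through Toll-like receptor 4 and switches macrophages to the production of cytokines. Microglia that have been activated before can answer a later stimulus more strongly (priming) or less strongly (tolerance), and the response can differ from gene to gene. The 7 genes do not belong to a shared pathway. Rnf187 encodes a RING ubiquitin ligase known as a coactivator of the transcription factor AP-1, and Pithd1 encodes a small protein with a PITH domain, which it shares with the thioredoxin-like protein Txnl1. Snx20 encodes a sorting nexin of endosomes that binds P-selectin glycoprotein ligand-1. Rcn2 encodes reticulocalbin-2, a calcium-binding EF-hand protein of the secretory pathway. Crtapl1 is the symbol in the count files for a gene that RefSeq lists as a synonym of Crtap, which encodes cartilage-associated protein, a partner of the collagen prolyl 3-hydroxylase. Amz1 encodes a zinc metalloprotease of the archaemetzincin family. Mtarc1 encodes a molybdenum enzyme of the outer mitochondrial membrane that reduces N-hydroxylated compounds.

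From library to library 6 of the 7 genes varied together and Amz1 did not (values below). Promoter sequences are shown as descriptions, and a link between them and this variation was not tested. The RefSeq table for the rat build GRCr8 held 5 of the 7 promoters. Rnf187 and Snx20 were not among them. The 250 bases before the start of Pithd1, which had the most negative difference in response, of Mtarc1 and Rcn2, which varied with it, and of Amz1 are printed 5′ to 3′ on the strand of the gene (plus for Rcn2, minus for the others), with motif matches in capitals:
Pithd1, chr5:153500026-153500275: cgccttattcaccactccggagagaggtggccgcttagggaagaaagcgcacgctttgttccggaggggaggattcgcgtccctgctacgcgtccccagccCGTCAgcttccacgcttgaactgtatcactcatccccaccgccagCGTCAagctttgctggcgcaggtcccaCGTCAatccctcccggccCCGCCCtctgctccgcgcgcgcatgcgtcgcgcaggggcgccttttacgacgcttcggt
Mtarc1, chr13:98894054-98894303: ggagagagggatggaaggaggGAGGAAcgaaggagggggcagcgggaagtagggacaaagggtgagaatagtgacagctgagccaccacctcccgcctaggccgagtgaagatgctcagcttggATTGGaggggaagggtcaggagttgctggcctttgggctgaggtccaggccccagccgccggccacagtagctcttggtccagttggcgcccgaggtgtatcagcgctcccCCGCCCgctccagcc
Rcn2, chr8:65344997-65345246: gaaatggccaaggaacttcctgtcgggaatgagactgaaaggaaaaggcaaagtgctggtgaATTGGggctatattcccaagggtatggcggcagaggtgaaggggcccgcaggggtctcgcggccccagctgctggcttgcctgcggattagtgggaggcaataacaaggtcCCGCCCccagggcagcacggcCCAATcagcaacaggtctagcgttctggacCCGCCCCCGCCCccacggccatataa
Amz1, chr12:19037926-19038175: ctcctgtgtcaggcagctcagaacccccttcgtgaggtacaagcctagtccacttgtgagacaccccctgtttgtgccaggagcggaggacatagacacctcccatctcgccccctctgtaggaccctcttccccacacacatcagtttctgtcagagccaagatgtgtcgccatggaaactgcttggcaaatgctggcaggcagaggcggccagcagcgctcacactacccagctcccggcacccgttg
In Pithd1 the capitals mark 3 cAMP response element cores (TGACG, here as the reverse complement CGTCA) and 1 GC box (GGGCGG, here as CCGCCC). In Mtarc1 they mark a PU.1 core (GAGGAA) on the printed strand and, on the other strand, a GC box and a CCAAT box. Rcn2 had 6 matches, which are 3 GC boxes, 2 CCAAT boxes and 1 EGR motif, and Amz1 had 0.

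Both strands were searched for 11 motifs, and the same windows of 33360 promoters gave the background. A GC box stood in 4 of the 5 promoters, all but Amz1, and in 30.5% of all promoters. The CCAAT box was found in Mtarc1 and Rcn2 (34% of all), the cAMP response element core in Pithd1 (18.2%), the TATA box (TATAAA) in Crtapl1 (12.9%) and the PU.1 core in Mtarc1 (23.3%). The EGR motif (GCGNGGGCG) was found in Rcn2 (4.3%), where it overlapped GC boxes. The AP-1 motif (TGANTCA), the STAT motif (TTCNNNGAA), the E-box (CACGTG), the CArG box and the NF-kB motif were in 0 of 5, against 6.35%, 7.68%, 5.61%, 1.5% and 8.84% of all promoters. The G and C content of the 5 windows ran from 57.2% to 65.2%, and the median over all promoters was 51.6%. A match describes letters only.

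The 7 genes shared a pattern of group means. Each was higher after LPS alone and after irradiation alone than in sham PBS rats, and irradiated LPS rats had a lower mean than either of these single-treatment groups. This pattern of fitted signs held for 7 of 7 genes, which the choice of genes favours, and for 801 of the 13608 tested genes (5.89%). Levels are CPM, counts set on a common library size with TMM factors, and the raw counts behind them ran from 72 for Pithd1 in a sham PBS library to 3964 for Rcn2 in a sham LPS library. In bulk RNA, fewer cells of a type and less RNA per cell cannot be told apart.

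**Figure D1:**
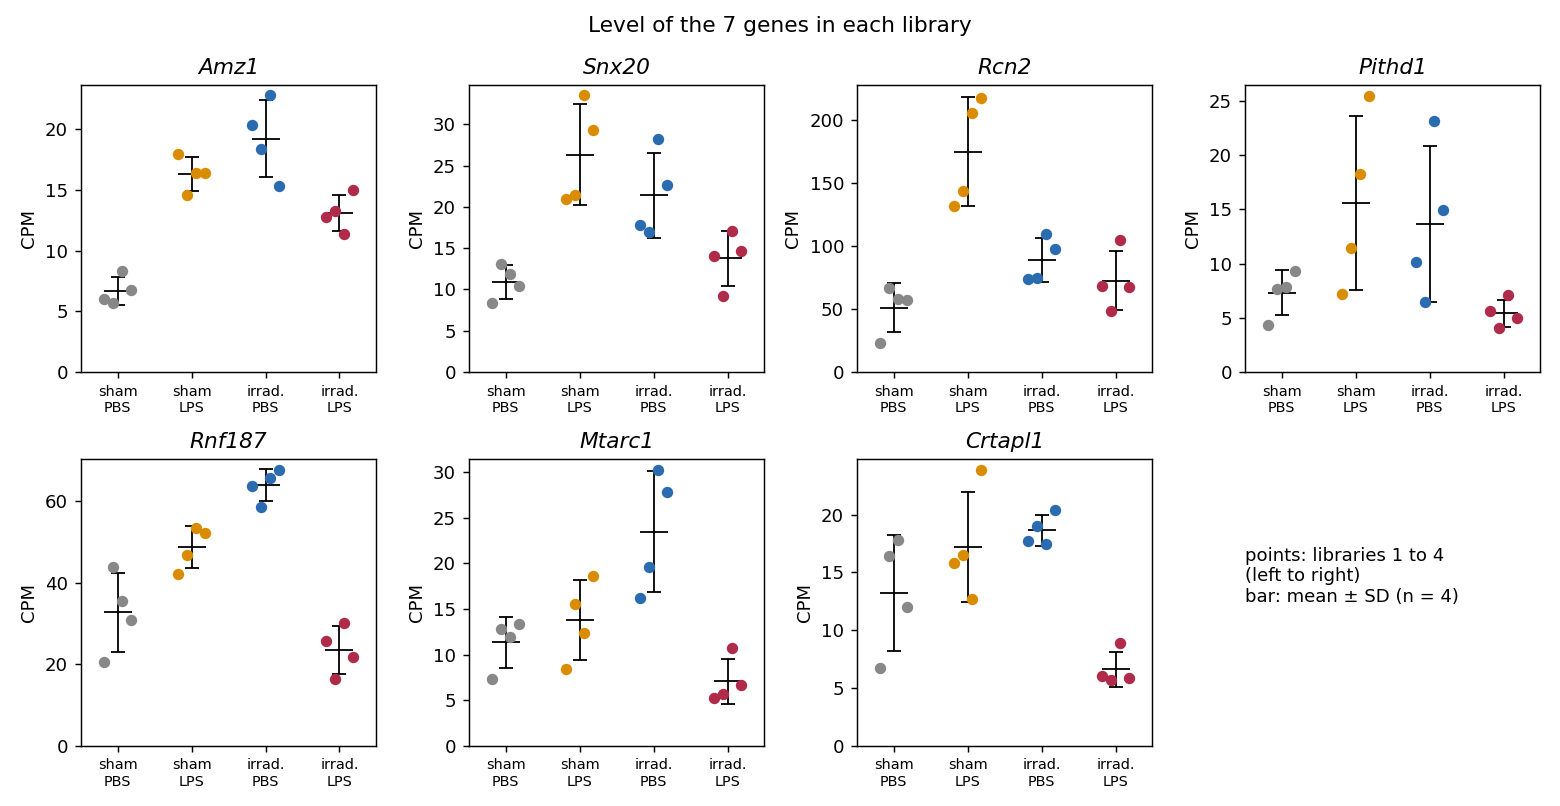
Level of each of the 7 genes in CPM (vertical axes) in the 4 groups (horizontal axes), with 1 point per library and bars for the mean and SD over 4 libraries. The irradiated LPS mean of Amz1 (13.1 CPM) is above its sham PBS mean (6.7 CPM), and that of Crtapl1 (6.61 CPM) is below (13.2 CPM).

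Rnf187, the AP-1 coactivator, measured 20.6, 44, 35.5 and 30.9 CPM in sham PBS libraries 1 to 4 and 42.3, 46.9, 53.6 and 52.2 CPM in sham LPS libraries. It measured 63.9, 58.6, 65.8 and 67.7 CPM in irradiated PBS libraries and 25.8, 16.3, 30.1 and 21.7 CPM in irradiated LPS libraries. The 4 irradiated PBS libraries were above the other 12, the 4 irradiated LPS libraries were below every sham LPS library, and sham PBS overlapped both sham LPS and irradiated LPS. The mean was 64 ± 3.92 CPM (SD, n = 4) in irradiated PBS and 23.5 ± 5.87 CPM (SD, n = 4) in irradiated LPS rats. With LPS the log2 fold change was 0.57 ± 0.19 (SE) in sham and -1.45 ± 0.19 (SE) in irradiated rats.

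Pithd1 had the most spread. It measured 4.38, 7.67, 7.82 and 9.35 CPM in sham PBS libraries, and 7.22, 11.4, 18.3 and 25.4 CPM in sham LPS libraries. Irradiated PBS libraries gave 10.1, 6.49, 23.1 and 14.9 CPM and irradiated LPS libraries 5.59, 4.09, 7.07 and 4.97 CPM. Of the 6 pairs of groups only sham LPS and irradiated LPS did not overlap, by a narrow gap between 7.07 and 7.22 CPM. The coefficient of variation was 51.3% in sham LPS and 52.5% in irradiated PBS rats, against 23.1% in irradiated LPS rats. The log2 fold change with LPS was 1.09 ± 0.39 (SE) in sham and -1.34 ± 0.39 (SE) in irradiated rats.

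Snx20, the sorting nexin, was at 8.33, 13.1, 11.9 and 10.4 CPM in sham PBS and at 21, 21.4, 33.5 and 29.3 CPM in sham LPS libraries. After irradiation it was at 17.8, 17, 28.2 and 22.6 CPM with PBS and at 14.1, 9.21, 17.1 and 14.7 CPM with LPS. Every library given a single treatment was above every sham PBS library, and sham LPS was above irradiated LPS without overlap. Irradiated LPS overlapped irradiated PBS by 1 library (17.1 against 17 CPM) and overlapped sham PBS. LPS gave a log2 fold change of 1.27 ± 0.22 (SE) in sham and -0.64 ± 0.22 (SE) in irradiated rats.

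Rcn2, the calcium-binding protein, was the only one of the 7 with sham LPS above the other 3 groups without overlap. Sham PBS libraries had 22.9, 66.6, 58.2 and 57.3 CPM and sham LPS libraries 132, 144, 206 and 218 CPM. Irradiated libraries had 74, 75, 110 and 97.6 CPM with PBS and 68.5, 48.6, 105 and 67.7 CPM with LPS. The mean of 175 ± 43.5 CPM (SD, n = 4) in sham LPS was followed by 89.2 ± 17.6 CPM (SD, n = 4) in irradiated PBS, 72.4 ± 23.5 CPM (SD, n = 4) in irradiated LPS and 51.2 ± 19.4 CPM (SD, n = 4) in sham PBS rats. Irradiated LPS overlapped irradiated PBS and sham PBS. The log2 fold change with LPS was 1.77 ± 0.31 (SE) in sham and -0.30 ± 0.30 (SE) in irradiated rats, so the second was about the size of its error.

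Crtapl1, the cartilage-associated protein gene, gave 6.69, 16.4, 17.8 and 12 CPM in sham PBS and 15.8, 16.5, 12.7 and 23.9 CPM in sham LPS libraries. It gave 17.7, 19, 17.5 and 20.4 CPM in irradiated PBS and 6.05, 5.68, 8.88 and 5.83 CPM in irradiated LPS libraries. The first 3 of these groups overlapped one another. Irradiated LPS was below sham LPS and irradiated PBS without overlap, and sham PBS reached into it with library 1 alone. For LPS the log2 fold change was 0.38 ± 0.25 (SE) in sham rats, where the groups overlapped, and -1.50 ± 0.26 (SE) in irradiated rats.

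Amz1, the metalloprotease, had the smallest spread. It measured 6.02, 5.73, 8.33 and 6.73 CPM in sham PBS and 18, 14.6, 16.4 and 16.4 CPM in sham LPS libraries. It measured 20.4, 18.4, 22.8 and 15.3 CPM in irradiated PBS and 12.8, 13.3, 11.4 and 15 CPM in irradiated LPS libraries. All 12 treated libraries were above all 4 sham PBS libraries, and irradiated LPS was below irradiated PBS without overlap. Sham LPS overlapped both irradiated groups. The log2 fold change with irradiation in PBS rats was 1.52 ± 0.17 (SE), from a mean of 6.7 ± 1.16 to 19.2 ± 3.17 CPM (SD, n = 4). With LPS it was 1.28 ± 0.17 (SE) in sham and -0.55 ± 0.16 (SE) in irradiated rats.

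Mtarc1, the molybdenum enzyme, measured 7.3, 12.8, 11.9 and 13.4 CPM in sham PBS and 8.38, 15.6, 12.4 and 18.6 CPM in sham LPS libraries. It measured 16.2, 19.6, 30.2 and 27.8 CPM in irradiated PBS and 5.23, 5.64, 10.7 and 6.71 CPM in irradiated LPS libraries. Irradiated PBS was above sham PBS and irradiated LPS without overlap, and the other groups overlapped their neighbours. The log2 fold change was 0.28 ± 0.28 (SE) with LPS in sham rats, about the size of its error. It was 1.05 ± 0.28 (SE) with irradiation in PBS rats and -1.73 ± 0.28 (SE) with LPS in irradiated rats.

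Non-overlapping groups, a description here since the choice used these contrasts, were found for LPS in sham rats in 3 of 7 genes (29.9% of all tested genes) and in irradiated rats in 4 of 7 (32.3%). Between irradiated and sham rats they were found in 5 of 7 genes with PBS (26.7%) and in 5 of 7 with LPS (26.7%). The similar differences in response were made up differently. Amz1, Snx20, Pithd1 and Rcn2 had LPS responses in sham rats from 1.09 to 1.77 (log2), and Rnf187, Mtarc1 and Crtapl1 from 0.28 to 0.57. In irradiated rats Amz1, Snx20 and Rcn2 had responses from -0.64 to -0.30, and the other 4 from -1.73 to -1.34. If the 2 single-treatment differences in CPM had added up, irradiated LPS rats would have had 28.9 CPM of Amz1, and the measured mean was 45.5% of that. The measured share of this sum was 24.8% for Pithd1, 27.3% for Mtarc1, 29.2% for Crtapl1, 29.4% for Rnf187, 34% for Rcn2 and 37.5% for Snx20.

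**Figure D2:**
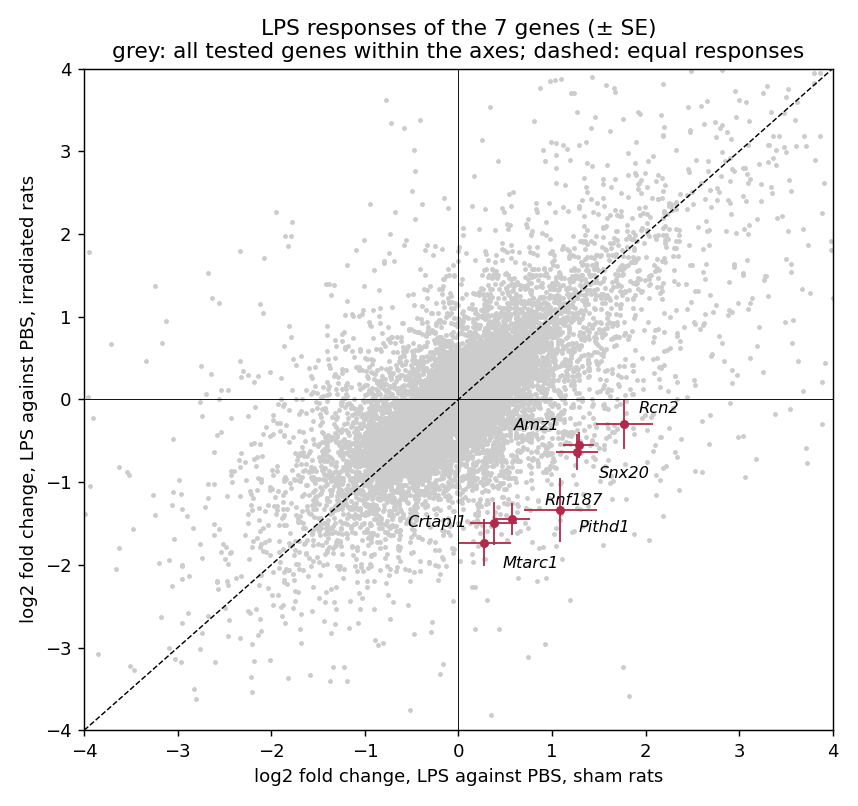
LPS response in sham rats (horizontal axis) against that in irradiated rats (vertical axis), both as log2 fold changes, for the 7 genes with their SE (red) and for tested genes within the axes (grey). The 7 genes lie to the right of 0 and below 0, with Rcn2 at 1.77 and -0.30 and Mtarc1 at 0.28 and -1.73.

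The difference between the LPS responses, irradiated minus sham, was the value that chose the genes. On the log2 scale it was -2.43 ± 0.55 (SE) for Pithd1, -2.07 ± 0.43 (SE) for Rcn2 and -2.02 ± 0.27 (SE) for Rnf187. It was -2.01 ± 0.40 (SE) for Mtarc1, -1.90 ± 0.31 (SE) for Snx20, -1.88 ± 0.36 (SE) for Crtapl1 and -1.83 ± 0.23 (SE) for Amz1. By edgeR, 171 genes (1.26% of those tested) had an adjusted p under 0.05 for this difference, and 0.647% had a negative difference. Of these negative genes, 72 carried a symbol and reached 3 in mean log2 CPM. Among these 72 the 7 genes held ranks between 2 and 10. Sdc1 (-2.05) and Odc1 (-1.96) lay within that range, and Egr1 (-3.10) held rank 1. The next after Amz1 were Cdkn1a (-1.66) and Zdhhc7 (-1.65), and no threshold is stated for the choice.

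Tests were limited to comparisons whose contrasts are orthogonal to that difference in this balanced design. They share its estimate of the spread, so they are not fully independent of the choice. Where a library is left out the balance is lost, and the contrasts need not stay orthogonal to that difference. Averaged over sham and irradiated rats, LPS raised Rcn2 and Amz1 and lowered Mtarc1, Crtapl1 and Rnf187. These are 5 of 7 genes, against 43.4% of all tested genes (2 higher, against 21.8%, and 3 lower, against 21.6%), with a median log2 fold change of -0.12 over the 7 and -0.02 over all. Rcn2 rose by 0.74 ± 0.21 (SE, adjusted p = 0.0112) and Amz1 by 0.37 ± 0.11 (SE, adjusted p = 0.014). Mtarc1 fell by 0.73 ± 0.20 (SE, adjusted p = 0.00619), Crtapl1 fell by 0.56 ± 0.18 (SE, adjusted p = 0.0168) and Rnf187 fell by 0.44 ± 0.14 (SE, adjusted p = 0.014). Snx20 was at 0.31 ± 0.15 (SE, adjusted p = 0.111), with a 95% interval from -0.01 to 0.64. It passed without irradiated LPS library 2 (adjusted p = 0.0386) and without irradiated PBS library 3 (adjusted p = 0.0499). Pithd1 was at -0.12 ± 0.27 (SE, adjusted p = 0.753), from -0.69 to 0.45. These averages stand for opposite signs in sham and irradiated rats.

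Averaged over PBS and LPS, irradiation changed 1 of the 7 genes, against 36% of all tested genes (19% higher and 17.1% lower). Amz1 rose by 0.60 ± 0.11 (SE, adjusted p = 0.000398). This average stands for 1.52 with PBS and -0.32 with LPS. Each of the 7 genes was higher after irradiation with PBS and lower with LPS, so an average near 0 does not show an unchanged gene. Summed markers of border-associated macrophages (6 of 6 found) and of monocytes also moved with irradiation. The border-associated macrophage sums went from 304 to 350 CPM in sham PBS to 727 to 966 CPM in irradiated PBS libraries. With LPS they were at 294 to 584 CPM in sham and 1110 to 1560 CPM in irradiated libraries. The monocyte sums went from 94 to 114 CPM in sham PBS to 318 to 365 CPM in irradiated PBS libraries. With LPS they were at 61.9 to 132 CPM in sham and 315 to 546 CPM in irradiated libraries. Of the border-associated macrophage markers, Cbr2 was at 74 CPM in sham PBS, 75.3 CPM in irradiated PBS and 54.8 CPM in irradiated LPS rats. The others were higher in both irradiated groups than in sham PBS. From irradiated PBS to irradiated LPS, Mrc1 (299 to 704 CPM) and Cd163 (77.4 to 191 CPM) rose. Lyve1 (156 to 149 CPM), Pf4 (120 to 92.6 CPM) and F13a1 (128 to 106 CPM) fell. The monocyte markers Ccr2 (42.9 to 30.3 CPM), Itga4 (71.6 to 39.1 CPM) and S100a4 (23.5 to 22.7 CPM) also fell at that step, and the other monocyte markers rose. Mean sums of T and NK cell, B cell, neuron, oligodendrocyte and neutrophil markers were also higher in irradiated PBS than in sham PBS rats. Those of microglia, astrocytes, endothelial cells and red cells were lower. The astrocyte sum followed Slc1a3 (759 CPM in sham PBS and 414 CPM in irradiated PBS rats). Gfap (1.88 to 15 CPM), Aqp4 (1.84 to 3.39 CPM), Aldh1l1 (0.213 to 0.658 CPM) and Gja1 (1.39 to 3.62 CPM) rose between these groups. So did the red cell marker Alas2 (0.294 to 0.464 CPM). The part of these markers in the Amz1 result was not tested. Of the other 6, 0 were lower by edgeR after adjustment, 1 had an unadjusted p under 0.05 (Crtapl1) and 1 was lower by DESeq2. Crtapl1 was at -0.44 ± 0.18 (SE, adjusted p = 0.0633), and over the alternative settings its adjusted p ran from 0.00766, without sham PBS library 1, to 0.168. It also passed without sham LPS library 3 (adjusted p = 0.0393), without irradiated LPS library 3 (adjusted p = 0.0288) and by DESeq2 (adjusted p = 0.045). The remaining 5 lay between -0.31 for Pithd1 and 0.05 for Mtarc1, with adjusted p from 0.412 to 0.949.

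Irradiation and LPS together, set against neither, left Amz1 higher and Crtapl1 lower, with Rnf187 at the edge of the threshold. Amz1 rose by 0.97 ± 0.16 (log2, SE, adjusted p = 9.03e-05), a 1.96-fold difference. Crtapl1 fell by 1.01 ± 0.26 (log2, SE, adjusted p = 0.00369), to 49.9% of the sham PBS mean. For Rnf187 the change was -0.48 ± 0.19 (SE, adjusted p = 0.0492), and the call was lost under 20 of 28 alternative settings. Without sham PBS library 2 it was -0.31 (adjusted p = 0.208). These 3 of 7 compare with 45.5% of all tested genes (23.9% higher and 21.5% lower). Mtarc1 was at -0.68 ± 0.28 (SE, adjusted p = 0.057), which passed under 7 alternatives, and Snx20, Pithd1 and Rcn2 did not pass, with 0.33, -0.44 and 0.50. The 4 sham PBS and 4 irradiated LPS libraries did not overlap for 1 of the 7 genes, Amz1, against 43.5% of all genes.

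Each treatment alone gave different levels of 2 of the 7 genes, against 37.2% of all tested genes (18.8% higher with LPS alone and 18.4% lower). Rcn2 was higher with LPS alone than with irradiation alone, by 0.97 ± 0.30 (log2, SE, adjusted p = 0.0194), and its libraries did not overlap. Non-overlap held for Rcn2 and Rnf187, 2 of 7 genes, against 35.2% of all genes. Mtarc1 was lower with LPS alone, at -0.77 ± 0.28 (log2, SE, adjusted p = 0.0374), but its libraries overlapped. The Rcn2 call was lost without any 1 of irradiated PBS libraries 1 and 2 or sham LPS libraries 3 and 4 (adjusted p from 0.0549 to 0.0567). The Mtarc1 call was lost without any 1 of sham LPS libraries 1 and 3 or irradiated PBS libraries 3 and 4 (adjusted p from 0.0883 to 0.119). Rnf187, at -0.39 ± 0.19 (SE, adjusted p = 0.119), did not pass although its libraries did not overlap. For Amz1 (-0.23), Crtapl1 (-0.12), Pithd1 (0.19) and Snx20 (0.30) the groups overlapped and adjusted p ran from 0.275 to 0.753.

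**Figure D3:**
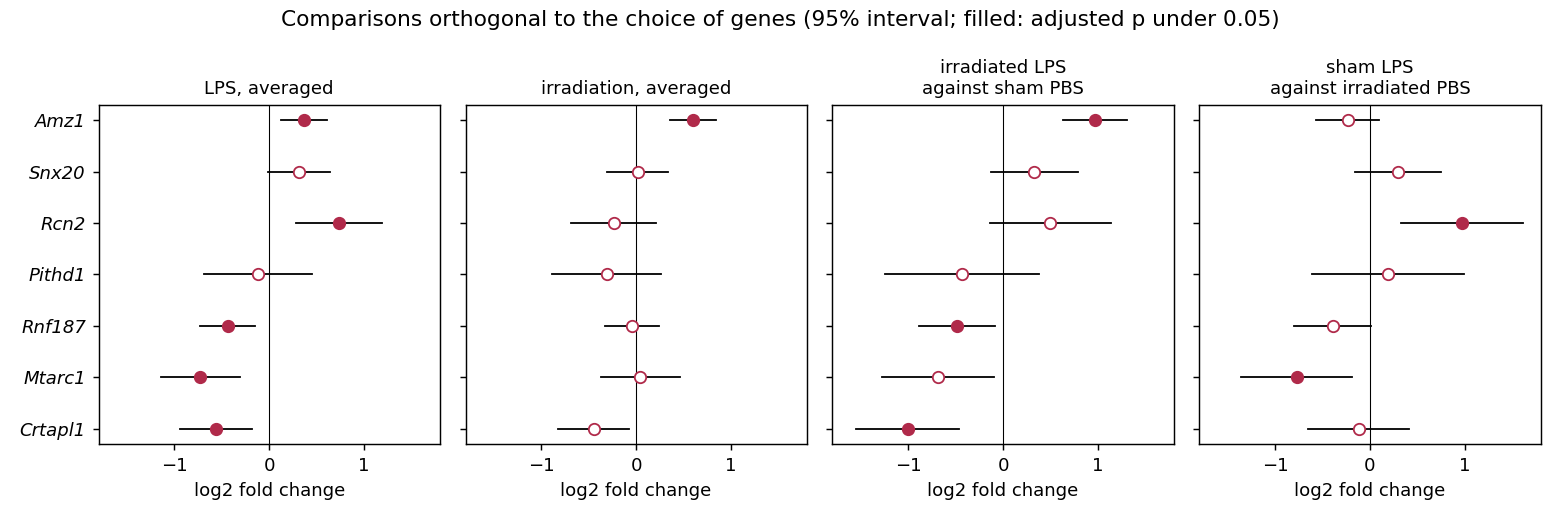
Log2 fold change (horizontal axes) of the 7 genes (vertical axis) in the 4 tested comparisons, with 95% intervals as lines and filled points where the adjusted p is under 0.05. Amz1 is filled in 3 of 4 panels, whereas Snx20 and Pithd1 are open in all 4.

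Beyond the group means, 6 of the 7 genes went up and down together from library to library. The correlation of their deviations from the group means over 16 libraries was between 0.42 (Crtapl1 and Pithd1) and 0.91 (Rnf187 and Rcn2) in 15 pairs, with a median of 0.75. Amz1 stood apart, with -0.19 to 0.07 in its 6 pairs with the others. Against 7947 other genes (mean log2 CPM from 3 upwards), the share with a correlation of deviations of at least 0.6 was 0.579% for Amz1, and from 2.67% for Crtapl1 to 7.39% for Mtarc1 for the other 6. Both values of a pair come from the same library and share its depth, so these correlations are descriptions.

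Sham PBS library 1 was below its group mean for 7 of 7 genes, with a mean deviation of -0.62 (log2). Its total of 16.8e6 counts was the lowest of the 4 sham PBS libraries, and its microglial marker sum of 45300 CPM was close to the 45800 to 49900 CPM of the other 3. Its oligodendrocyte marker sum was 122 CPM, against 58.3 to 72.1 CPM in the other 3. Its red cell marker sum was 14.6 CPM, against 41.9 to 115 CPM. The part of these markers in the deviation of the 7 genes was not tested. The largest gaps in that group were for Rcn2 (22.9 CPM against 57.3 to 66.6) and Crtapl1 (6.69 CPM against 12 to 17.8). Without this library the difference in LPS response was smaller in size for each gene, at -1.78 for Amz1, -1.85 for Rnf187, -1.85 for Mtarc1, -1.79 for Snx20, -1.66 for Crtapl1, -2.25 for Pithd1 and -1.83 for Rcn2. Irradiated LPS library 3 was above its group mean for 6 of 7 genes, by a mean of 0.37 (log2), and library 2 below it for 6 of 7. By library number, the mean deviation of the 7 genes was negative in the library numbered 1 of every group (-0.62, -0.34, -0.17 and -0.03) and positive in the library numbered 3 of every group (0.24, 0.10, 0.33 and 0.37).

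**Figure D4:**
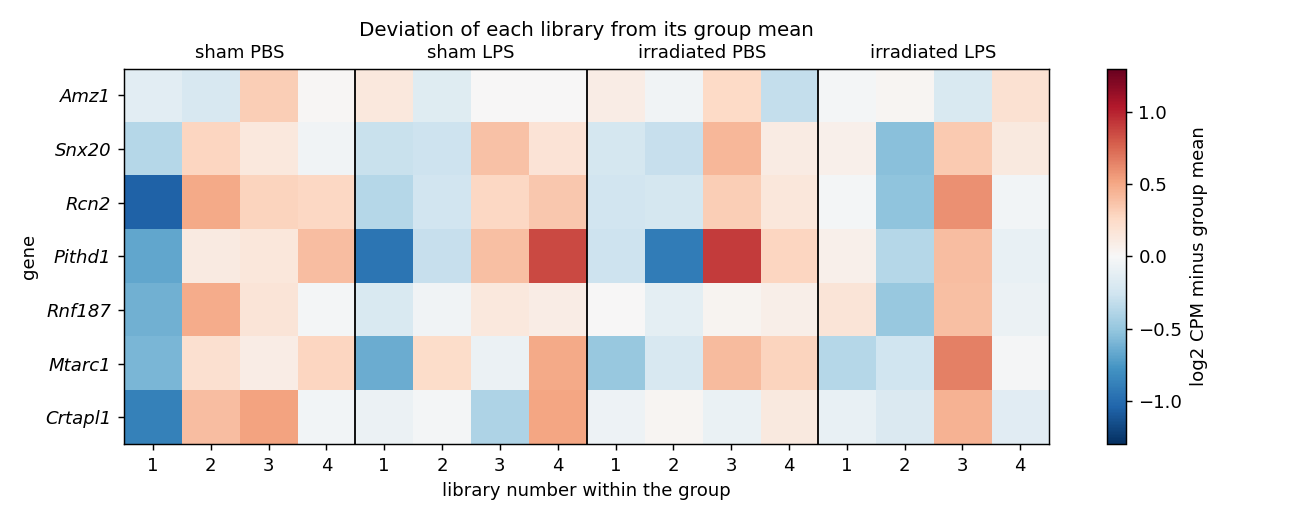
Deviation of each library from its group mean in log2 CPM (colour) for the 7 genes (vertical axis) and the 16 libraries (horizontal axis, by group). Sham PBS library 1 is blue for all 7 genes, by a mean of -0.62.

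Genes outside the 7 with the most similar pattern over the 16 libraries, by Pearson correlation of log2 CPM among 7947 genes, differed between the members. For Rnf187 they were Eif2ak3 (0.94), Mau2 (0.9) and Mlycd (0.899). Mtarc1 had Rnf145 (0.931), Vmac (0.914) and Klhdc2 (0.912), and Crtapl1 had Klhdc2 (0.939), Mff (0.922) and Mlycd (0.894). For Pithd1 they were Itm2c (0.943), Lrrc47 (0.933) and Zdhhc7 (0.929). Snx20 and Rcn2 shared Ppm1g (0.889 and 0.948) and Ubqln1 (0.887 and 0.895), beside Ptp4a1 (0.914) for Snx20 and Myzap (0.954) for Rcn2. The correlations for Amz1 were lower, with Tagln2 (0.861), Spint2 (0.832) and Tbc1d10a (0.824). Eif2ak3, which encodes the endoplasmic reticulum stress kinase PERK, had group means of 24.2, 28.1, 41.6 and 16.4 CPM in sham PBS, sham LPS, irradiated PBS and irradiated LPS rats, the same order as Rnf187.

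Relatives and partners of the 7 genes were followed through the same comparisons. Of 106 listed related genes 96 were tested. For the difference between the LPS responses, 0 of 96 passed by edgeR, 15 had an unadjusted p under 0.05, 5 passed by DESeq2 and 0 by limma voom. The genes passing by DESeq2 were Fos, Map2k1, Snx10, Snx18 and Creld2. Over all tested genes, edgeR called 171 (1.26%) and DESeq2 called 418 for this difference. The share of all genes under the unadjusted threshold is not given here, so the 15 cannot be set against a background. Fos, an AP-1 subunit, had -1.92 ± 0.47 (SE, edgeR adjusted p = 0.0596, DESeq2 adjusted p = 0.00184), and its group means were 3.6, 42, 11.8 and 36.9 CPM. A p that misses the threshold does not show that the responses were equal.

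**Figure D5:**
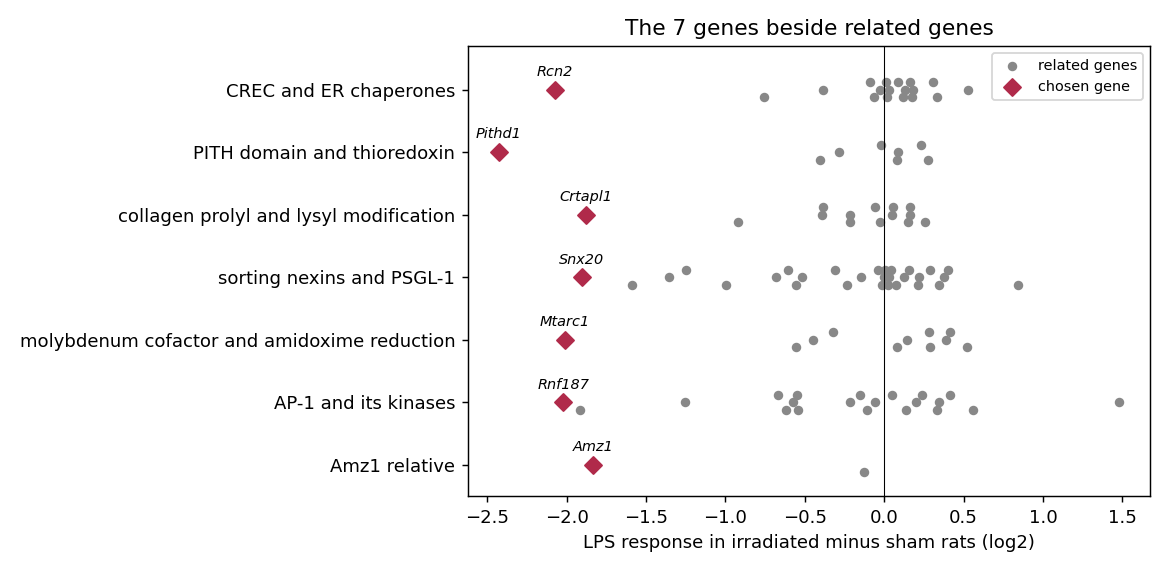
Difference in LPS response, irradiated minus sham (log2, horizontal axis), of the 7 genes (red diamonds) and of related genes (grey points), by list. The diamonds lie between -2.43 and -1.83 and were chosen for this value, and the related genes lie between -1.92 and 1.48.

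Among AP-1 subunits and kinases, the partners of Rnf187, LPS averaged over sham and irradiated rats raised 10 of 20 and lowered 1 (median 0.31, against -0.02 over all genes). Irradiation averaged over PBS and LPS raised 6 and lowered 4. The effects of LPS and of irradiation on the further lists are the same averages. Of all tested genes, LPS raised 21.8% and lowered 21.6%, and irradiation raised 19% and lowered 17.1%. Jun, the subunit with which Rnf187 is known to work, rose with LPS by 0.59 ± 0.09 (SE, adjusted p = 4.24e-05) and with irradiation by 0.90 ± 0.09 (SE, adjusted p = 4.27e-07). Its group means of 233, 289, 358 and 654 CPM were highest in irradiated LPS rats, where Rnf187 had its lowest mean. Atf3 went from 1.99 CPM in sham PBS to 76.6 CPM in irradiated LPS rats.

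Of 7 PITH domain and thioredoxin genes, LPS raised 5 and lowered 1 (21.8% and 21.6% of all tested genes). Irradiation raised 2 (19% of all) and lowered 0 (17.1% of all, and in this list 0 with an unadjusted p under 0.05 and 0 by DESeq2). Txnl1, which carries the same domain as Pithd1, had 51.4, 63.6, 50.5 and 61.5 CPM, a rise with LPS of 0.30 ± 0.07 (SE, adjusted p = 0.00159) and a difference in response of -0.02 ± 0.13 (SE, adjusted p = 0.976). Txnrd1, a thioredoxin reductase, rose with LPS by 1.77 ± 0.13 (SE, adjusted p = 5.94e-09).

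Of 28 tested genes, sorting nexins and Selplg, LPS raised 9 and lowered 7 (21.8% and 21.6% of all tested genes). Irradiation raised 7 and lowered 4 (19% and 17.1% of all). Selplg, which encodes the P-selectin ligand that Snx20 binds, fell with irradiation by 1.17 ± 0.10 (SE, adjusted p = 7.25e-08) and with LPS by 0.42 ± 0.10 (SE, adjusted p = 0.00243), over group means of 7900, 6550, 3910 and 2620 CPM. Snx21, which shares the domain layout of Snx20, had a difference in response of -0.23 ± 0.48 (SE, adjusted p = 0.921). Snx18 had -0.68 ± 0.20 (SE, edgeR adjusted p = 0.132).

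Genes of the endoplasmic reticulum around Rcn2 were mostly lower after irradiation. Of 17 CREC family and chaperone genes, irradiation lowered 12 and raised 0 (0 with an unadjusted p under 0.05, 0 by DESeq2 and 0 by limma voom), with a median of -0.26. Of all tested genes, irradiation lowered 17.1% and raised 19%. Summed markers of microglia (8 of 8 found) also moved with irradiation, from a mean of 46900 CPM in sham PBS to 27600 CPM in irradiated PBS rats. Those of endothelial cells (4 of 5 found) went from 380 to 170 CPM. Between these groups the microglial marker Aif1 (1160 to 1270 CPM) and the endothelial marker Flt1 (1.38 to 2.24 CPM) rose. The other markers found in these 2 lists were lower. The part of these markers in the count of lowered genes was not tested. Rcn3, a relative of Rcn2, fell by 1.89 ± 0.14 (SE, adjusted p = 7.87e-09), Calu, for calumenin, fell by 0.54 ± 0.07 (SE, adjusted p = 7.53e-06), and Rcn1 fell by 0.62 ± 0.18 (SE, adjusted p = 0.0108). Rcn2 itself was at -0.24 ± 0.21 (SE, adjusted p = 0.425). Sdf4, the CREC protein of the Golgi, was at -0.02 ± 0.06 (SE, adjusted p = 0.823). LPS raised 3 and lowered 3 of the 17 (21.8% and 21.6% of all tested genes).

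Of 13 collagen-modifying genes around Crtapl1, irradiation lowered 8 and raised 3 (17.1% and 19% of all tested genes). LPS lowered 5 and raised 3 (21.6% and 21.8% of all). P4ha1, a prolyl 4-hydroxylase subunit, fell with irradiation by 1.16 ± 0.05 (SE, adjusted p = 2.32e-11) and with LPS by 0.74 ± 0.05 (SE, adjusted p = 3.66e-09). Fkbp10, a collagen chaperone, fell with irradiation by 0.87 ± 0.07 (SE, adjusted p = 1.75e-08). The difference in LPS response was -0.22 ± 0.10 (SE, adjusted p = 0.423) for P4ha1.

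Amz2, the relative of Amz1, fell where Amz1 rose in the averaged comparisons. It fell with LPS by 0.25 ± 0.08 (SE, adjusted p = 0.0159) and with irradiation by 0.29 ± 0.08 (SE, adjusted p = 0.00729), with group means of 37.7, 33.1, 32.1 and 25.9 CPM. In irradiated rats LPS lowered both genes (-0.55 for Amz1 and -0.31 for Amz2). Among rats given LPS both were lower after irradiation (-0.32 and -0.35). Of 10 genes of the molybdenum cofactor and of amidoxime reduction around Mtarc1, LPS raised 2 and lowered 4. Irradiation raised 3 and lowered 0 by edgeR (1 with an unadjusted p under 0.05, 0 by DESeq2 and 1 by limma voom). Of all tested genes, LPS raised 21.8% and lowered 21.6%, and irradiation raised 19% and lowered 17.1%. Cyb5b, the cytochrome b5 that passes electrons to Mtarc1, fell with LPS by 0.52 ± 0.09 (SE, adjusted p = 0.000178). Xdh, the molybdenum enzyme xanthine dehydrogenase, rose with LPS by 2.05 ± 0.23 (SE, adjusted p = 5.28e-06) and with irradiation by 3.06 ± 0.24 (SE, adjusted p = 1.37e-07), from 7.51 CPM in sham PBS to 259 CPM in irradiated LPS rats.

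Total counts ran from 14.3e6 to 62.7e6 per library, with the irradiated LPS libraries at 19e6 to 62.7e6. All 8 microglial markers were found, and their summed level was 45300 to 49900 CPM in sham PBS, 41400 to 45200 CPM in sham LPS, 24300 to 30100 CPM in irradiated PBS and 20100 to 25900 CPM in irradiated LPS libraries. Of 11 marker lists, 0 had the pattern of group means that the 7 genes shared. Irradiated library 1 of each injection stood apart in markers of other cells, with oligodendrocyte sums of 420 (PBS) and 532 CPM (LPS), against 62.4 to 163 CPM in the other irradiated libraries. Neutrophil markers summed to 1920 CPM in irradiated LPS library 1 and to 69.6 to 328 CPM in the other 3. Without both libraries the difference in LPS response ran from -2.55 for Pithd1 to -1.79 for Amz1, and the call of Rcn2 between the single treatments was lost (adjusted p = 0.0657).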

How the data were processed

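RNA of sorted microglia was sequenced in 16 libraries, 4 per group. The authors deposited raw read counts per Ensembl gene. HTSeq 2.0.2, fastp 0.23.2, FastQC 0.11.9 and the build mRatBN7.2 are named in the submitters' processing notes. No source used here gives the aligner or the strand setting, so overlapping genes may share reads. Identifiers without a symbol held 1.847% to 2.282% of counts.

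The quasi-likelihood test of edgeR 4.0.16 (R 4.3.3) was fitted to the counts of all 16 libraries with a coefficient for each group, after filterByExpr and TMM scaling and with robust moderation (13608 genes, common biological coefficient of variation 0.289). Adjusted p-values are Benjamini-Hochberg values over all tested genes from this test unless another tool is named, with a threshold of 0.05. An SE is the log2 fold change divided by the square root of F. A prior count of 2 entered log2 CPM. The method was tested on simulated data for the averaged LPS and irradiation effects, the difference in response, and irradiated LPS against sham PBS. Sham LPS against irradiated PBS was not simulated. Sampling noise was exceeded in each of 24 replicate pairs (chi-square per degree of freedom 19.2 to 75.1).

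Members and gene lists were chosen with earlier results of these data known, and the comparisons of irradiated LPS with sham PBS and of sham LPS with irradiated PBS were added after the data were seen. The rule for named genes took the members, for each the 3 genes of highest correlation, and in each list the closest relatives and up to 4 genes of smallest p; list genes printed are a selection of these. Alternatives were DESeq2 1.42.0, limma 3.58.1 (voom with sample weights), other scalings and filters, no robust moderation, counts per symbol, a replicate block, and leaving out libraries.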

Additional observations from a re-analysis of the deposited data

Results flagged for a closer look

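Crtapl1 in irradiated LPS library 3 was at 8.88 CPM, far above the other 3 libraries of its group, which lay between 5.68 and 6.05 CPM. The gap to the nearest library took a share of 0.884 of the whole range of the group. It was the only such value among 28 groups (7 genes in 4 groups), and chance gives about 1 in 20. Irradiated LPS library 3 was above its group mean for 6 of 7 genes.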

How the results depend on the processing

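All 28 alternatives kept the pattern of 7 genes higher with either treatment alone and lower with the second, and the 5 calls for LPS averaged over sham and irradiated rats. In the latter comparison members higher ran from 2 to 3 when single libraries were left out, the third being Snx20. Members under the interaction threshold numbered 5 to 7, against 0.647% of all tested genes with a negative difference in the main fit. This count is a description only, since the choice of genes used this value. All genes called for the interaction numbered 171, but 418 by DESeq2, 98 without both irradiated libraries numbered 1, 80 when sham PBS library 1 was also left out (chosen after seeing the data), and 103 to 191 when single libraries were left out. Members lower in irradiated LPS against sham PBS numbered 2, but 1 with RLE size factors, with library totals alone, without the low-count filter, without robust moderation and without both irradiated libraries numbered 1, 3 by DESeq2, by limma voom and with upper-quartile factors, where Mtarc1 passed too, and 1 to 3 when single libraries were left out. Members lower with irradiation on average numbered 0, but 1 by DESeq2 and 1 in the combination chosen after seeing the data, and 0 to 1 when single libraries were left out. Between sham LPS and irradiated PBS, members lower numbered 1, but 3 with library totals alone, and members higher numbered 1, but 0 without both irradiated libraries numbered 1; both ran from 0 to 1 when single libraries were left out. The cause of these differences was not tested. Library totals alone shifted the median of all genes by up to -0.192 (log2, sham LPS against irradiated PBS) and changed the sign of 2 values that had not passed, Rnf187 for averaged irradiation (0.07) and Pithd1 for sham LPS against irradiated PBS (-0.01).

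The replicate numbers were not treated as pairs, since the labels tie them to nothing. Not every same-numbered pair correlated above 0.1, which is no test of a shared factor. Deviations of same-numbered libraries had correlations from -0.09 to 0.40 (median 0.09, 24 pairs), and those of different numbers from -0.29 to 0.20 (median -0.03, 72 pairs). Of 16 libraries, 13 correlated best with their own number out of 4 numbers. This comes from the data, not the design, and the numbers may share something. The p-values without a block do not take this into account. With a replicate block, 221 genes were called for the interaction, and in irradiated LPS against sham PBS Rnf187 no longer passed (adjusted p = 0.0551) and Mtarc1 did (adjusted p = 0.01). It changed no other call of the 7 genes. Pithd1, with as few as 72 counts per library, was the member with the widest intervals.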
